A study of Rattus norvegicus with 48 samples.

Results

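This comparison set 3 livers of male Sprague-Dawley rats that received thioacetamide (TAA) at 15 mg/kg once daily for 14 days (middle dose 14-d) against 3 livers of rats that received vehicle alone for 14 days (control 14-d). The members were chosen by their labels: replicates 31, 32 and 33 of the middle dose and replicates 13, 14 and 15 of the controls, which makes 6 of the 48 miRNA-seq libraries. The other libraries came from rats at 0, 4.5, 15 or 45 mg/kg for 3, 7, 14 or 28 days, with 3 rats in each group, and all animals were killed on the day after the last dose. RNA came from a piece of whole liver, so each library mixes hepatocytes with blood, endothelial, stellate, bile duct and immune cells.

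TAA is converted by liver enzymes into reactive products that kill hepatocytes around the central veins, and repeated dosing leads to regeneration, fibrosis and bile duct proliferation. A miRNA is cut from a hairpin precursor, whose 5p and 3p arms can each be retained, and it directs a silencing complex to messenger RNAs that pair with its seed, bases 2 to 8 from its 5′ end. miRNAs with the same seed are therefore grouped into families. Well-known examples in liver are miR-122, which makes up much of the miRNA of hepatocytes, and miR-34a, which is transcribed under the control of p53 after DNA damage and represses genes of the cell cycle.

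The 6 libraries held between 9795330 and 12830063 counted reads. The shallowest library of the series, control 3-d replicate 1, held 293331 and was not part of the fit of these 6. Except where stated, it did enter the filter over the series, the pool of all controls and the fits of all 48 libraries. A count of 3 corresponded to 0.234 to 0.306 RPM, the reads of a miRNA scaled to a common library size, a limit that covers counting error only. The 5 most abundant miRNAs took between 55.7% and 59.4% of the counts of each library. Across the series, 12 libraries stood apart by the level of miR-100-5p, namely all 9 middle dose libraries of 7, 14 and 28 days (replicates 31 to 39), high dose 7-d replicate 26 and low dose 28-d replicates 28 and 30. The 3 treated rats described here are among them, whereas their controls and the other dose groups of 14 days are not, and the values are given with the results they touch.

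Mature sequences of the miRNAs on which the results turn are printed 5′ to 3′, with the seed in capitals. They were taken from the RefSeq annotation of assembly GRCr8, in which 270 of the 301 tested miRNAs were matched, and 46 of the 52 called as differentially expressed. miR-99a-5p, miR-362-5p, miR-486, miR-674-3p and miR-3577 are named without a sequence. The set with seed GGCAGUG is shown because it holds the miRNA with the highest fold change, miR-34a-5p at chr5:165815971-165815992 on the plus strand.
miR-34a-5p: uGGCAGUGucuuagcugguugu
miR-449a-5p: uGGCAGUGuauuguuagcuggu
miR-34c-5p: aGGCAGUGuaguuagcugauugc

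Sequences with seed ACCCGUA are shown because both were higher after TAA, and miR-125b-5p because it is encoded near a member of the same family.
miR-100-5p: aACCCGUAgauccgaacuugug
miR-99b-5p: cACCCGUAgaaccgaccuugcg
miR-125b-5p: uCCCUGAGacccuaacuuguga

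The pair with seed ACUGGCC is shown because its members were DEMs of opposite direction against the 14-d controls although 18 of 22 positions hold the same base.
miR-193a-3p: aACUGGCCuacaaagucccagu
miR-193b-3p: aACUGGCCcacaaaguccc

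Of the remaining higher miRNAs, those with the next highest fold changes and a sequence in the annotation are shown.
miR-212-5p: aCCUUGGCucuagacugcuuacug
miR-501-3p: aAUGCACCcgggcaaggauuugg
miR-6329: aAUGUGACucagcuaucugaaca

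The lower miRNAs on which the results turn share no seed with each other. miR-144-5p, miR-144-3p and miR-451-5p are shown because they lie within 1 genomic cluster and fell together.
miR-455-3p: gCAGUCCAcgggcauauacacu
miR-122-3p: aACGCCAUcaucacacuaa
miR-210-3p: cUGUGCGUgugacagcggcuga
miR-144-5p: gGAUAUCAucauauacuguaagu
miR-144-3p: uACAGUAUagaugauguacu
miR-451-5p: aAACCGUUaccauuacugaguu

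After 14 days at the middle dose more miRNAs were higher than lower. A miRNA was taken as differentially expressed (DEM) where edgeR's quasi-likelihood F-test on these 6 libraries gave p below 0.05 without adjustment and the levels differed more than 1.5-fold, and 301 miRNAs were tested. Of these, 52 (17.3%) were DEMs, 36 higher (12%) and 16 lower (5.32%). Over 2-fold, 14 were higher and 6 lower. A Benjamini-Hochberg adjusted p-value below 0.05 in edgeR was reached by 55 miRNAs (18.3%), among them 40 of the DEMs (26 higher and 14 lower). The median log2 fold change over all 301 was 0.006. For 125 miRNAs (41.5%) the 3 treated and the 3 control values did not overlap, and this held for 47 of the 52 DEMs. The 5 with overlapping values, named here after their values were seen, were miR-582-3p, miR-6324, miR-31a-3p, miR-200c-3p and miR-6216. The split between directions moved with the scaling: with DESeq2's size factors in the same test 33 were higher and 24 lower, and with library size alone, where the median log2 fold change of all miRNAs was 0.175, 56 were higher and 11 lower.

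**Figure D1:**
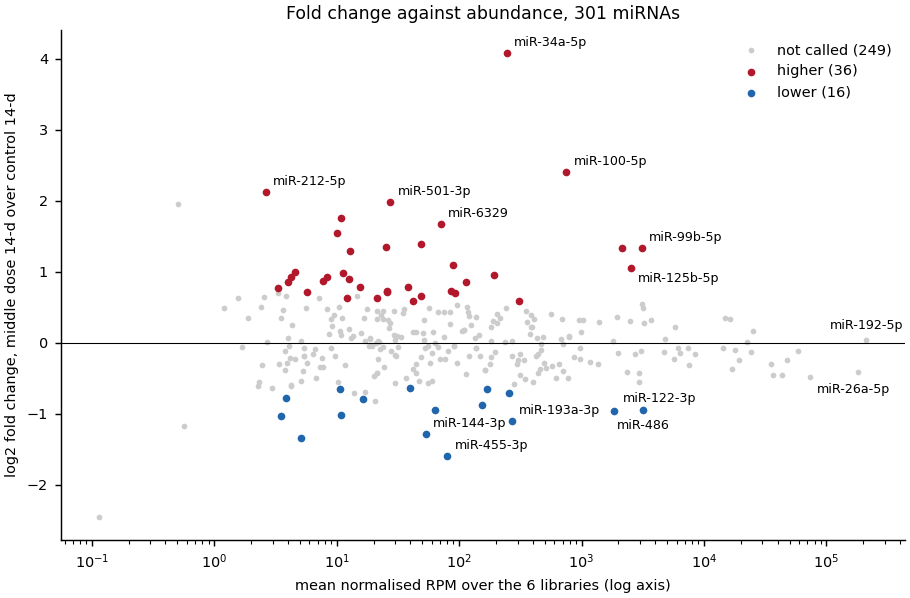
Log2 fold change of middle dose 14-d over control 14-d (vertical axis) against the mean normalised RPM over the 6 libraries (horizontal log axis) for the 301 tested miRNAs, each point 1 miRNA, red for the 36 higher and blue for the 16 lower DEMs. miR-34a-5p stands highest at 4.08, while the most abundant miRNAs on the right lie near 0.

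The DEMs were mostly of moderate or low abundance. Only 5 of the 48 tested miRNAs with a mean above 1000 normalised RPM were DEMs (miR-99b-5p, miR-99a-5p, miR-125b-5p, miR-122-3p and miR-486), and 11 DEMs had a mean below 10 normalised RPM. Together the 52 made up 1.20% to 1.41% of the counts in the controls and 1.90% to 2.10% in the treated rats. As the 52 were chosen by their difference between these same libraries, the shares are a description only.

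miR-34a-5p had the largest fold change of the 301. All per-sample values that follow are RPM after upper quartile normalization over these 6 libraries, in the order of replicates 13, 14 and 15 for the controls and 31, 32 and 33 for the middle dose. The controls held 22.6, 30.6 and 28.7 RPM of miR-34a-5p and the treated rats 485, 559 and 339 RPM. The lowest treated value was thus more than 10 times the highest control value, and the estimated increase was 16.9-fold (log2 4.08 ± 0.22 SE, edgeR adjusted p = 3.48e-07). The other arm of its hairpin, miR-34a-3p, was too rare to be tested, with 4 counts in the 3 controls together and 67 in the 3 treated libraries. Of the seed relatives, miR-34c-5p held 45.3, 47 and 54.2 RPM against 49.2, 35.2 and 34.9 and was not called (log2 -0.30 ± 0.18). miR-449a-5p, named after its values were seen, was a DEM at a low level, with 3.33, 1.86 and 2.24 RPM in the controls and 4.85, 4.17 and 3.59 in the treated rats (log2 0.77 ± 0.31, edgeR adjusted p = 0.0999). Of its 12 highest values in the series (5.17 RPM or more) 0 were controls. It thus reached the filter mainly through libraries of treated rats, and its values are a description.

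In the miR-99/100 family miR-100-5p, miR-99a-5p and miR-99b-5p rose, as did miR-125b-5p. The 12 libraries that stood apart hold the 12 highest values of miR-100-5p by definition. Of the 12 highest values in the 48 libraries, 12 for miR-99a-5p, 11 for miR-99b-5p and 11 for miR-125b-5p also belonged to them. For these 4, as for every miRNA of this comparison, the dose and that set of libraries cannot be told apart. These miRNAs are produced from clusters that also encode let-7 members, miR-125b being a relative of the developmental timing regulator lin-4 of worms. miR-100-5p stood at 253, 272 and 193 RPM in the controls and at 1333, 1049 and 1419 RPM in the treated rats. It was raised 5.29-fold (log2 2.40 ± 0.18, edgeR adjusted p = 3.64e-06), without overlap between the groups.

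miR-99b-5p went from 2016, 1761 and 1516 RPM to 4253, 4425 and 4657 RPM. Its relative miR-99a-5p held 1466, 1059.6 and 1099 RPM in the controls and 3130.3, 2861 and 3152 RPM after TAA. Both were raised 2.52-fold (log2 1.33 ± 0.13 and 1.34 ± 0.14, edgeR adjusted p = 3.1e-05 and 7.78e-05), and in each the 3 treated rats lay above all controls. For miR-125b-5p the controls had 1803, 1597 and 1532 RPM and the treated rats 3953, 3123 and 3191 RPM, a 2.08-fold increase (log2 1.06 ± 0.13, edgeR adjusted p = 0.000228). These 3 were the higher DEMs with the most reads, each above 1000 RPM in every library.

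Other members of this group of 9 tested miRNAs did not follow. The group had 4 higher and 1 lower DEM and a median log2 fold change of 0.27, against 12% higher and 5.32% lower over all miRNAs tested. miR-125a-5p, with the seed of miR-125b-5p, was not called (log2 0.27), and miR-125a-3p was lower at a level under 6 RPM (4.19, 5.27 and 4.83 RPM against 1.79, 2.66 and 2.48; log2 -1.04 ± 0.29, edgeR adjusted p = 0.0259). The opposite arm of miR-99a-5p, miR-99a-3p, was not called either (log2 0.16 ± 0.20). Of the 19 tested let-7 and miR-98 miRNAs, only some of which are cluster partners of this family, 0 were DEMs in edgeR's test. The 19 had a median log2 of -0.16, 7 unadjusted p-values below 0.05 and 2 adjusted ones. DESeq2's Wald test called 2 of the 19, both lower.

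Several less abundant miRNAs were also among the higher DEMs that were chosen for having no overlap between the groups. miR-501-3p held 12.3, 11.6 and 9.49 RPM in the controls and 38.5, 42.4 and 50.4 RPM in the treated rats, a 3.94-fold increase (log2 1.98 ± 0.19, edgeR adjusted p = 3.1e-05). miR-362-5p, whose other arm lies in the same X chromosome region, went from 6.02, 5.06 and 3.97 RPM to 18.1, 17.8 and 14.6 RPM (log2 1.75 ± 0.23, edgeR adjusted p = 0.00029). In both, the 3 treated values were close to each other and well above the controls. miR-6329 was measured at 27.3, 38.4 and 35.7 RPM in the controls and 93.1, 134 and 97.6 RPM after TAA (3.20-fold, log2 1.68 ± 0.20, edgeR adjusted p = 0.000176). For miR-3473 the values were 5.59, 5.06 and 4.66 RPM against 10.8, 14.6 and 19.3 RPM (log2 1.55 ± 0.25, edgeR adjusted p = 0.00172). Its highest treated value was 1.8 times its lowest, so the size of its increase varied more between rats than that of miR-501-3p. miR-674-3p rose by less and evenly, from 75.3, 76.8 and 89.9 RPM to 139.8, 150.3 and 146 RPM (1.80-fold, edgeR adjusted p = 0.00231).

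miR-212-5p, from a locus that responds to the transcription factor CREB, was rare in the controls at 0.861, 0.929 and 1.12 RPM and held 5.79, 3.24 and 3.84 RPM in the treated rats (log2 2.12 ± 0.37). Over the 3 libraries of each group this was 30 counts against 158. Only replicate 31 of the 6 libraries reached 5 RPM and no control library of the series did, so miR-212-5p was tested because of libraries of treated rats, and its values are a description. Its sister arm miR-212-3p was not called (log2 0.34 ± 0.41), nor was its neighbour miR-132-3p (log2 0.63 ± 0.30, edgeR adjusted p = 0.147).

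miR-7a-5p and miR-190b-5p, miRNAs best known from neurons and endocrine cells, also rose. miR-7a-5p was even in the controls (28.5, 27.8 and 25.3 RPM) and uneven in the treated rats (105.6, 64.3 and 42.9 RPM; log2 1.38 ± 0.28, edgeR adjusted p = 0.00445). miR-190b-5p held 18, 8.47 and 16.1 RPM against 36.4, 33 and 39 RPM (log2 1.35 ± 0.25, edgeR adjusted p = 0.00317). Neither showed an overlap between groups. Their relatives miR-7a-1-3p (log2 0.45 ± 0.17), miR-190a-3p and miR-190a-5p (log2 0.15 ± 0.18) were not called. All 5 tested miR-7 and miR-190 miRNAs had a log2 fold change above 0, with a median of 0.66. Of the 5, 3 had an unadjusted p-value below 0.05 in edgeR's quasi-likelihood test. Higher DEMs among them were 3 in edgeR's exact test and 4 with library size alone. miR-466b-5p, from a large rodent miRNA family, went from 7.21, 8.88 and 6.38 RPM to 25, 13.7 and 16.3 RPM (log2 1.29 ± 0.26, edgeR adjusted p = 0.0044), while the 5 other tested members of that family were not called.

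Smaller increases were seen for miRNAs linked to inflammation and epithelium. miR-146b-5p, a relative of the NF-kB-induced miR-146a-5p, stood at 217, 259 and 263 RPM in the controls and 395, 369 and 347 RPM in the treated rats, at the edge of the fold threshold (1.5-fold, log2 0.59 ± 0.14, edgeR adjusted p = 0.0134). It was no longer a DEM without control replicate 13 (log2 0.50) or without middle dose replicate 31 (log2 0.54), nor in 7 other settings, namely TMM, DESeq2's size factors, DESeq2's Wald test, no filter, both pools of controls and the fit of all 48 libraries. miR-146a-5p and miR-155-5p, the other tested members of that list, were not called (log2 -0.07 and -0.09). miR-200c-3p, which maintains epithelial identity, had overlapping values (8.07, 6.30 and 2.93 RPM against 7.24, 13.6 and 11.6 RPM; log2 0.92 ± 0.35, edgeR adjusted p = 0.0887). Its call was lost without control replicate 15 (log2 0.59), middle dose replicate 32 (log2 0.72) or middle dose replicate 33 (log2 0.87), and the 5 other members of the miR-200 family were not called. miR-96-5p (log2 0.72 ± 0.25, edgeR adjusted p = 0.0695) had treated values of 28.4, 45.3 and 22.5 RPM above controls of 20, 21.5 and 17.2 RPM. Without middle dose replicate 32 its log2 fold change was 0.38 and without control replicate 15 it was 0.63, and neither passed.

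**Figure D2:**
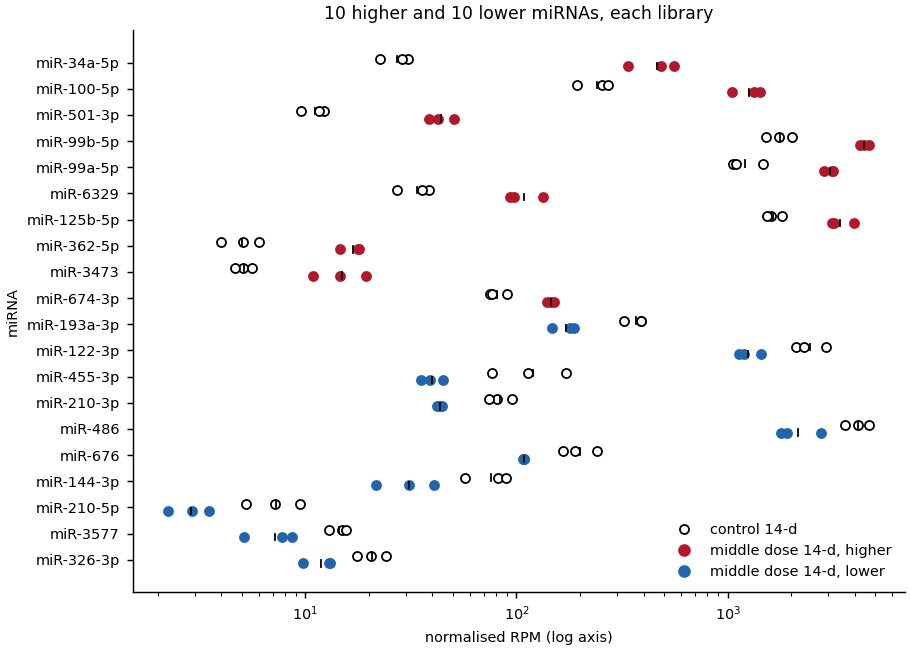
Normalised RPM (horizontal log axis) of 10 higher and 10 lower DEMs, chosen by p-value among those without overlap, with 1 open point for each control 14-d library, 1 filled point for each middle dose 14-d library (red where higher, blue where lower) and a short line at each group mean. miR-34a-5p shows the widest gap, from at most 30.6 in the controls to at least 339 in the treated rats.

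Among the lower miRNAs, miR-455-3p had the lowest log2 fold change of the 16 DEMs. This miRNA is encoded within the collagen gene Col27a1. Its controls spread widely, at 172, 76.2 and 113 RPM, while the treated rats held 44.7, 39.1 and 35.2 RPM. The groups did not overlap, and the level was 3.03-fold lower after TAA (log2 -1.60 ± 0.26, edgeR adjusted p = 0.00172). The 5p arm of the same hairpin held 78.5, 47.4 and 61.9 RPM in the controls and 55.9, 56.5 and 57.9 RPM in the treated rats, which lay inside the control range (log2 -0.14 ± 0.19).

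miR-193a-3p fell from 387, 324 and 390.3 RPM to 147, 187 and 179 RPM (2.15-fold lower, log2 -1.10 ± 0.15, edgeR adjusted p = 0.000577). miR-193b-3p, with the same seed, was higher against the 14-d controls, from 83.4, 56.4 and 73.8 RPM to 105, 122 and 119 RPM (log2 0.69 ± 0.17, edgeR adjusted p = 0.0158). Both were without overlap. The increase of miR-193b-3p did not pass without control replicate 14 (log2 0.55), in the fit of all 48 libraries (log2 0.69) or against the pooled controls without their shallowest library (log2 0.18). Against all controls pooled it was at -0.75, in the direction of miR-193a-3p.

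The liver-specific miR-122 differed between its arms. miR-122-3p, the rarer one, fell from 2101, 2312 and 2919.9 RPM to 1441, 1129 and 1198 RPM (1.95-fold lower, log2 -0.96 ± 0.15, edgeR adjusted p = 0.00156). Against all control libraries pooled it was not a DEM. Scaled over all 48 libraries, controls held 1026 to 1454 RPM at 3-d, 1329 to 1508 at 7-d and 1968 to 2880 at 28-d. The middle dose 14-d rats held 1147 to 1463 RPM on that scale. miR-122-5p, the arm that accumulates in hepatocytes, stood at 35079.8, 35797 and 45060.2 RPM in the controls and 39520.2, 26664 and 27485 RPM in the treated rats. Those groups overlapped through middle dose replicate 31, and miR-122-5p was not called (log2 -0.31 ± 0.15, edgeR adjusted p = 0.16). In whole liver RNA, fewer cells of a type and less RNA per cell cannot be told apart. Of the 8 hepatocyte miRNAs, miR-122-3p was the DEM, and their summed level was 290536 to 338369 RPM in the controls and 289502 to 346064 RPM in the treated rats, with a median log2 of -0.09.

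miR-210, which is induced by hypoxia, was lower in both arms. miR-210-3p fell from 94.8, 80.8 and 74.4 RPM to 44.5, 41.9 and 43.5 RPM (log2 -0.94 ± 0.16, edgeR adjusted p = 0.00192). miR-210-5p fell from 7.21, 9.39 and 5.26 RPM to 3.49, 2.23 and 2.9 RPM (log2 -1.34 ± 0.30, edgeR adjusted p = 0.0092). Neither arm overlapped between the groups. The remaining lower DEMs of the set drawn by library were miR-676 (167, 240.3 and 189.9 RPM against 109, 108 and 109; log2 -0.88 ± 0.16), miR-3577 (12.9, 15 and 15.6 RPM against 5.11, 7.77 and 8.63; log2 -1.01 ± 0.23) and miR-326-3p (24, 20.4 and 17.6 RPM against 9.71, 12.9 and 13.1; log2 -0.79 ± 0.20). In all of them every treated rat lay below every control, but absence of overlap was a condition for entering that set. It is therefore not a result for any of its members, higher or lower.

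All 4 tested miRNAs of red blood cells were lower DEMs, against 5.32% of all miRNAs tested. miR-486 and the miR-144/451 cluster are among the most abundant miRNAs of maturing red cells, miR-451 being processed without Dicer. miR-486 fell from 4701, 4158 and 3584 RPM to 1911, 1784 and 2779 RPM (1.92-fold lower, log2 -0.94 ± 0.17, edgeR adjusted p = 0.00314). miR-144-3p fell from 82.2, 56.8 and 89.4 RPM to 31, 21.7 and 40.5 RPM (2.45-fold lower, log2 -1.29 ± 0.25, edgeR adjusted p = 0.0032). The treated values of both lay below those of all controls.

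miR-144-5p was lower by less, with 48.9, 48.8 and 45.9 RPM in the controls and 28.4, 25.4 and 38.7 RPM after TAA (log2 -0.64 ± 0.19, edgeR adjusted p = 0.033). miR-451-5p stood at 416, 279 and 260.3 RPM against 140.1, 211 and 231 RPM (log2 -0.72 ± 0.22, edgeR adjusted p = 0.0465). Without middle dose replicate 31 the calls of miR-144-5p (log2 -0.58) and miR-451-5p (log2 -0.53) were lost, miR-144-5p also without middle dose replicate 32 (log2 -0.51) and miR-451-5p also without control replicate 13 (log2 -0.48). The summed level of the 4 miRNAs was 3979 to 5249 RPM in the controls and 2042 to 3089 RPM in the treated rats. With library size alone 2 of the 4 were DEMs, and all 4 still had a log2 fold change below 0. With all control libraries pooled 2 remained, without miR-486 and miR-451-5p, and in the fit of all 48 libraries 1 remained, miR-144-3p. For miR-486, 10 of the 12 lowest values of the series belonged to the 12 libraries that stood apart. How much of this was blood in the tissue, and what part it had in other differences, was not tested.

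Markers of other cells were called in 1 case, although some of their summed levels differed. Of 4 leukocyte miRNAs, 0 were DEMs by edgeR or DESeq2 (1 with library size alone), and their sum was 3178 to 4254 RPM in the controls and 2899 to 3713 RPM in the treated rats. Muscle markers (2 tested), the pancreas marker and the kidney marker (1 tested each) gave 0 DEMs by either tool. Of 2 brain markers, miR-9a-5p was a DEM at a low level (3.33, 2.48 and 2.76 RPM against 4, 4.75 and 6.84 RPM; log2 0.86 ± 0.30, edgeR adjusted p = 0.07), and not without middle dose replicate 33 (log2 0.62). Unadjusted p-values below 0.05 among these 10 miRNAs were found for miR-223-3p (log2 0.44) and miR-9a-5p. The summed level of the muscle markers was 24.3 to 25.9 RPM in the controls and 28.6 to 30.6 RPM in the treated rats, without overlap. The 2 markers had opposite signs, with log2 fold changes of 0.40 for miR-499-5p and -0.59 for miR-133a-3p. The pancreas marker held 298 to 356 RPM against 341 to 449 RPM, the kidney marker 41.4 to 83.5 against 39.4 to 85.1 RPM and the brain markers 13.3 to 25.8 against 18.7 to 24.3 RPM, and these 3 overlapped. The 2 miR-126 miRNAs of endothelium summed to 23759 to 25647 RPM in the controls and 19897 to 21696 RPM in the treated rats. These sums again did not overlap after upper quartile scaling, with 0 DEMs in edgeR's test. Scaled by library size alone, the sums of the groups overlapped. The median log2 fold change of the 2 miRNAs was then 0.09, against -0.08 here. Most of the sum was miR-126a-5p (log2 -0.37), while miR-126a-3p had the opposite sign (log2 0.22). The part of these cells in other differences was not tested.

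The most abundant miRNAs changed little. miR-192-5p, an epithelial and hepatocyte miRNA, held 217904, 190358 and 216738 RPM in the controls and 241770.0, 208685 and 192156 RPM in the treated rats, and it was not called (log2 0.04 ± 0.09). miR-22-3p held 200025, 202908 and 220152 RPM against 167032, 145743 and 155285 RPM (log2 -0.41 ± 0.08, edgeR adjusted p = 0.0032). miR-26a-5p stood at 81428, 84503 and 88717 RPM against 63547, 56151 and 62732 RPM (log2 -0.48 ± 0.08, edgeR adjusted p = 0.00231). Both had an adjusted p-value below 0.05 and no overlap but were under 1.5-fold and so were no DEMs. miR-148a-3p (log2 -0.12 ± 0.12) and miR-10a-5p (log2 -0.25 ± 0.10), next in abundance, overlapped between the groups.

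In all, 15 miRNAs had an adjusted p-value below 0.05 in edgeR at less than 1.5-fold, 4 of them higher and 11 lower. Along with miR-22-3p and miR-26a-5p they included miR-143-3p of smooth muscle and stellate cells (log2 -0.46 ± 0.09), miR-21-5p, which is commonly induced in injured liver (50297, 47695 and 51371 RPM against 40972, 37049 and 30864 RPM; log2 -0.46 ± 0.11), and miR-126a-5p of endothelium (log2 -0.37 ± 0.09). The treated values of all 3 were below the control values. The summed level of the 4 miR-143/145 miRNAs was 41911 to 43269 RPM in the controls and 29667 to 33422 RPM in the treated rats. Most of that sum was miR-143-3p. The 4 gave 0 DEMs in edgeR's test and 1 in DESeq2's Wald test. In edgeR the unadjusted p-value was below 0.05 for miR-143-3p and miR-145-5p (log2 -0.58 ± 0.22). The other arms, miR-143-5p and miR-145-3p, went the other way, with log2 fold changes above 0 and at most 0.33.

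Most of the 38 miRNA lists examined held few DEMs. They cover 191 of the tested miRNAs and 27 of the 52 DEMs, and 20 lists had 0 DEMs. All 11 tested miR-30 miRNAs, abundant in hepatocytes and epithelium, had a log2 fold change below 0, between -0.65 and -0.07 with a median of -0.35, but with library size alone 5 of them were above 0. A single one of them was a DEM, miR-30d-3p (172, 263 and 186 RPM against 141, 123 and 133 RPM; log2 -0.65 ± 0.18, edgeR adjusted p = 0.0258), and not without control replicate 14 (log2 -0.44). Its call was also lost with library size alone, with both pools of controls and with filters of 5 RPM in 3 or in all 6 of the libraries. All 9 miRNAs of the growth-promoting miR-17 to miR-92a cluster had a log2 fold change above 0, with a median of 0.36. Of these, 0 were DEMs in edgeR's or DESeq2's test and 3 had an unadjusted p-value below 0.05 in edgeR, whereas 3 were higher DEMs with library size alone.

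For families tied to fibrosis the counts were small as well. The 5 tested miR-29 miRNAs, which repress collagen genes, gave 0 DEMs and 0 unadjusted p-values below 0.05 in edgeR and in DESeq2, with log2 fold changes between -0.25 and 0.04. The 3 miR-199a and miR-214 miRNAs of stellate cells gave 0 DEMs in either tool and 2 unadjusted p-values below 0.05 in edgeR, with log2 fold changes of 0.49 ± 0.21 for miR-199a-5p, -0.50 ± 0.19 for miR-199a-3p and -0.17 ± 0.19 for miR-214-3p. The arms of miR-199a thus had opposite signs, both with overlapping groups. Of the 6 tested miRNAs of the imprinted Dlk1-Dio3 cluster, miR-127-3p was a DEM (12, 11.9 and 9.92 RPM against 20.9, 20.1 and 17.4 RPM; log2 0.79 ± 0.18, edgeR adjusted p = 0.0108). The others were not called.

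**Figure D3:**
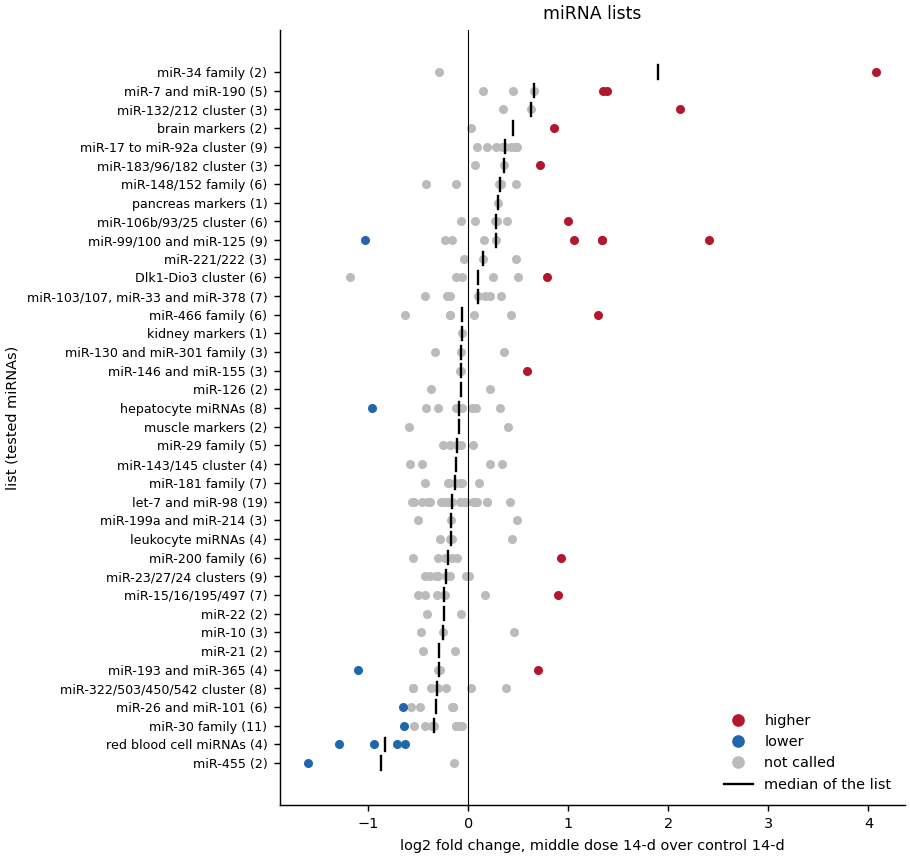
Log2 fold change of middle dose 14-d over control 14-d (horizontal axis) for each tested miRNA of the 38 lists (rows, with the number tested), red where a higher DEM, blue where a lower DEM and grey otherwise, with a line at the median of the list. The 4 red blood cell miRNAs are all blue, and the miR-99/100 and miR-125 list holds 4 red points and 1 blue point.

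The other DEMs had smaller differences. Of the 36 higher DEMs, miR-3559-5p, miR-671, miR-15b-3p, miR-374-3p, miR-3068-3p, miR-92b-3p, miR-25-5p, miR-219a-1-3p, miR-3559-3p, miR-3558-5p and miR-674-5p had log2 fold changes between 0.59 and 1.00 without overlap. Most of them fall outside the rule for naming and were added after their values were seen. Of the 12 highest values in the 48 libraries, 1 was a control for miR-25-5p (5.32 RPM or more) and 1 for miR-3558-5p (4.90 RPM or more). Both thus reached the filter mainly through libraries of treated rats, and their values are a description. miR-674-5p (log2 0.63 ± 0.23, edgeR adjusted p = 0.0794) was not a DEM without control replicate 14 (log2 0.51), control replicate 15 (0.67), middle dose replicate 31 (0.50) or middle dose replicate 32 (0.56). In miR-582-3p, which overlapped through middle dose replicate 32, the values were 74.2, 53.7 and 44.8 RPM in the controls and 168, 54.1 and 145 RPM in the treated rats (log2 1.09 ± 0.35, edgeR adjusted p = 0.0501). On the lower side miR-101a-5p (log2 -0.65 ± 0.23, edgeR adjusted p = 0.0695) was not a DEM without control replicate 15 (log2 -0.54) or middle dose replicate 33 (-0.52). Its call was also lost with library size alone, with both pools of controls and with filters of 5 RPM in 3 or in all 6 of the libraries. miR-490-3p, outside the rule, stood at -0.78 ± 0.34 with an edgeR adjusted p of 0.124.

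The DEMs had neighbours that were not called in most genomic clusters. In 10 groups of at least 3 tested miRNAs that lie within 10000 bases of their neighbour in GRCr8 and include a DEM, the miR-144/451 cluster at chr10:63459409-63459606 was the 1 in which every tested miRNA was called. The cluster at chr1:67350070-67350748 held miR-99b-5p (log2 1.33), let-7e-5p (-0.46), let-7e-3p (-0.16), miR-125a-5p (0.27) and miR-125a-3p (-1.04), so that DEMs of opposite direction lie within 1 cluster. On the X chromosome, at chrX:17919195-17930716, miR-501-3p rose (log2 1.98) and the 5 other miRNAs placed there were not called. Their log2 fold changes were 0.02 for miR-532-5p, -0.19 for miR-532-3p, 0.09 for miR-188-5p, 0.05 for miR-362-3p and 0.24 for miR-500-3p. However, miR-362-5p, the other arm of the miR-362-3p hairpin, was a higher DEM too (log2 1.75). It had no match in the annotation and was therefore not placed in this cluster. At chr10:60521771-60522112, miR-212-5p was the DEM beside miR-212-3p and miR-132-3p, all 3 with a log2 fold change above 0. In the cluster of miR-106b, miR-93 and miR-25, 5 of 6 were above 0, as were all 3 in the cluster of miR-96-5p, with 1 DEM each. A miRNA that was not called is not shown to be unchanged, and whether neighbours moved together was not tested.

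**Figure D4:**
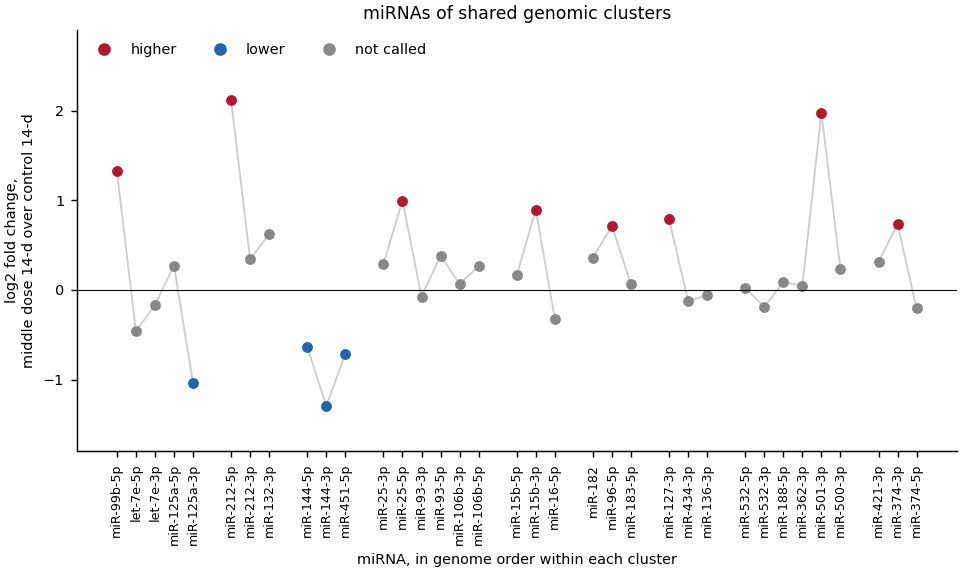
Log2 fold change of middle dose 14-d over control 14-d (vertical axis) for miRNAs in genome order within 9 clusters that hold a DEM, joined by grey lines, red where higher, blue where lower and grey where not called. All 3 miRNAs of the miR-144/451 cluster are blue, whereas miR-501-3p stands at 1.98 among drawn neighbours between -0.19 and 0.24. The higher DEM miR-362-5p (log2 1.75), from the same hairpin as miR-362-3p, had no match in the annotation and is not drawn.

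The arms of a hairpin are made from the same transcript in equal numbers, and their levels differ through what is retained. For 21 hairpins both arms were tested and at least 1 was a DEM, and in 4 of them both arms were DEMs, in the same direction (miR-144, miR-210, miR-3559 and miR-674). In the 17 others 1 arm was called. Examples are miR-362, with 151 counts in the 3 controls and 631 in the 3 treated libraries for the 5p arm but 571 and 720 for the 3p arm, and miR-455, with 1907 and 2121 counts for the 5p arm and 3645 and 1480 for the 3p arm. For miR-100, miR-501 and miR-99b the other arm was too rare to be tested, and miR-100-3p had 9 counts in the controls and 5 in the treated libraries while miR-100-5p had 7234 and 46845. Whether the difference of the arms exceeded chance was not tested.

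At 7 and 28 days of the middle dose, compared with their own controls, a large share of the same miRNAs was called in the same direction. At 7-d 48 of 301 were DEMs (15.9%) and at 28-d 99 (32.9%). Of the 52 DEMs of 14-d, 25 were DEMs in the same direction at 7-d (25 of the 48 there), 41 at 28-d (41 of the 99 there) and 22 at both. For miR-34a-5p the log2 fold change reached 2.37 ± 0.17 at 7-d, 4.08 ± 0.22 at 14-d and 4.88 ± 0.30 at 28-d. miR-100-5p stood at 2.85, 2.40 and 2.23, and miR-6329 at 1.79, 1.68 and 1.88. miR-455-3p was at -0.69, -1.60 and -0.71, and miR-486 at -1.59, -0.94 and -0.87. All 9 middle dose libraries of these times belong to the 12 libraries that stood apart.

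A difference between time points was not shown. In a single fit of all 48 libraries, edgeR called 0 miRNAs (0%) for the effect at 14-d minus the effect at 7-d, with 13 at an unadjusted p-value below 0.05 and a lowest adjusted p-value of 0.529. For the effect at 28-d minus the effect at 14-d it also called 0 (0%), with 16 at an unadjusted p-value below 0.05 and a lowest adjusted p-value of 0.493. For miR-34a-5p the estimates were 1.70 ± 0.68 (adjusted p = 0.748) and 0.80 ± 0.68 (adjusted p = 0.975) on the log2 scale. The first count depended on the libraries in the fit, with 4 calls when the 3-d libraries were left out and 5 when only the groups of the contrast entered.

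Between doses at 14 days many levels differed. The low dose, middle dose and high dose groups of 14-d share their controls, so the levels of the doses were compared directly. The middle dose libraries belong to the set that stood apart and the low and high dose libraries of 14-d do not. In both contrasts the dose and that set of libraries therefore cannot be told apart. Middle minus low dose gave 70 miRNAs (23.3%) with an adjusted p-value below 0.05 in edgeR, 24 higher and 46 lower at the middle dose. High minus middle dose gave 16 (5.32%), 3 higher and 13 lower at the high dose. The split of the first depended on the scaling, with 35 higher and 35 lower under TMM, 36 and 26 under DESeq2's size factors and 41 and 16 with library size alone.

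miR-34a-5p was not shown to differ between low and middle dose and was lower at the high dose. In RPM scaled over all 48 libraries, the low dose 14-d rats held 559, 518 and 1080.1 RPM, the middle dose rats 493, 568 and 344 RPM and the high dose rats 39.5, 106 and 75.5 RPM, above controls of 22.9, 31 and 29.2 RPM. High minus middle dose was -2.67 ± 0.50 on the log2 scale (edgeR adjusted p = 0.00124), and middle minus low dose was -0.62 ± 0.47 (adjusted p = 0.379). miR-6329 followed the same order, with high minus middle dose at -1.21 ± 0.29 (edgeR adjusted p = 0.00592) and middle minus low dose at -0.39 ± 0.28 (adjusted p = 0.341).

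miR-100-5p, miR-99a-5p and miR-501-3p instead stood out at the middle dose. miR-100-5p held 204, 174 and 127 RPM at the low dose, 1354, 1065 and 1441 RPM at the middle dose and 179, 201 and 175 RPM at the high dose, against 257, 277 and 196 RPM in the controls. Its difference was 2.94 ± 0.56 for middle minus low dose (edgeR adjusted p = 0.000491) and -2.80 ± 0.56 for high minus middle dose (adjusted p = 0.00124). The low and high dose rats were thus within or below the range of the controls. For miR-501-3p middle minus low dose was 2.94 ± 0.55 and high minus middle dose -2.23 ± 0.53 (edgeR adjusted p = 0.000491 and 0.00592).

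Other miRNAs were higher at the low dose than at the middle dose, whose values were nearer to those of the controls. let-7a-5p stood at 12358, 11297 and 12996 RPM at the low dose, 5607, 4995 and 5391 RPM at the middle dose and 5929.8, 5677 and 7229 RPM in the controls (middle minus low dose -1.20 ± 0.22, edgeR adjusted p = 0.000491). miR-148a-5p (-1.36 ± 0.26) and miR-1843a-5p (-0.87 ± 0.17) gave the same adjusted p-value. At the high dose miR-434-3p of the Dlk1-Dio3 cluster held 26.9, 13.5 and 23 RPM against 3.55, 3.73 and 3.82 RPM at the middle dose (2.52 ± 0.51, edgeR adjusted p = 0.00124). miR-144-3p was at 21.2, 108 and 158 RPM against 31.5, 22.1 and 41.1 RPM (1.60 ± 0.46, edgeR adjusted p = 0.0264), and its high dose values overlapped the middle dose values.

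The libraries that stood apart limit what can be tied to the dose. On the scale of all 48 libraries the 12 highest values of miR-100-5p lay between 880.3 and 1539 RPM and the next at 391 RPM. They were those of the 9 middle dose libraries of 7, 14 and 28 days, high dose 7-d replicate 26 at 1539 RPM and low dose 28-d replicates 28 and 30 at 928 and 880.3 RPM. The other high dose 7-d rats held 198 and 125 RPM and the other low dose 28-d rat 114 RPM, so that the highest rat of a group lay 12.3-fold and 8.12-fold above the lowest. The middle dose 3-d libraries, at 232, 181 and 302 RPM, were not among the 12.

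The same 12 libraries recurred for other DEMs. They were the 12 highest of 48 for miR-99a-5p and miR-362-5p too. At least 11 of them were shared by 10 of the 52 DEMs (8 higher), counting miR-100-5p itself, among them miR-501-3p, miR-99b-5p, miR-125b-5p, miR-374-3p, miR-3577 and miR-326-3p, the last 2 for the 12 lowest values. miR-486, miR-210-3p and miR-212-5p shared 10 of them and miR-193a-3p, miR-455-3p and miR-674-3p 9, so that 16 of the 52 DEMs shared at least 9. Other DEMs shared fewer: miR-34a-5p shared 4 of the 12, miR-6329 6, miR-466b-5p 2, and miR-7a-5p and miR-190b-5p 1 each. The same count was not made for miRNAs that were not called, so these counts have no share over all tested miRNAs beside them. The DEMs were also chosen by a difference that involves 3 of the 12 libraries, so part of the sharing follows from that choice. The sample labels carry a running number, which for these 12 libraries is 26, 28 and 30 to 39, and they name no preparation or sequencing batch. The authors describe pooling the 48 barcoded libraries and name no batch either. As all 3 middle dose 14-d libraries and none of their controls belong to the 12, the dose and this set of libraries cannot be told apart within the comparison.

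**Figure D5:**
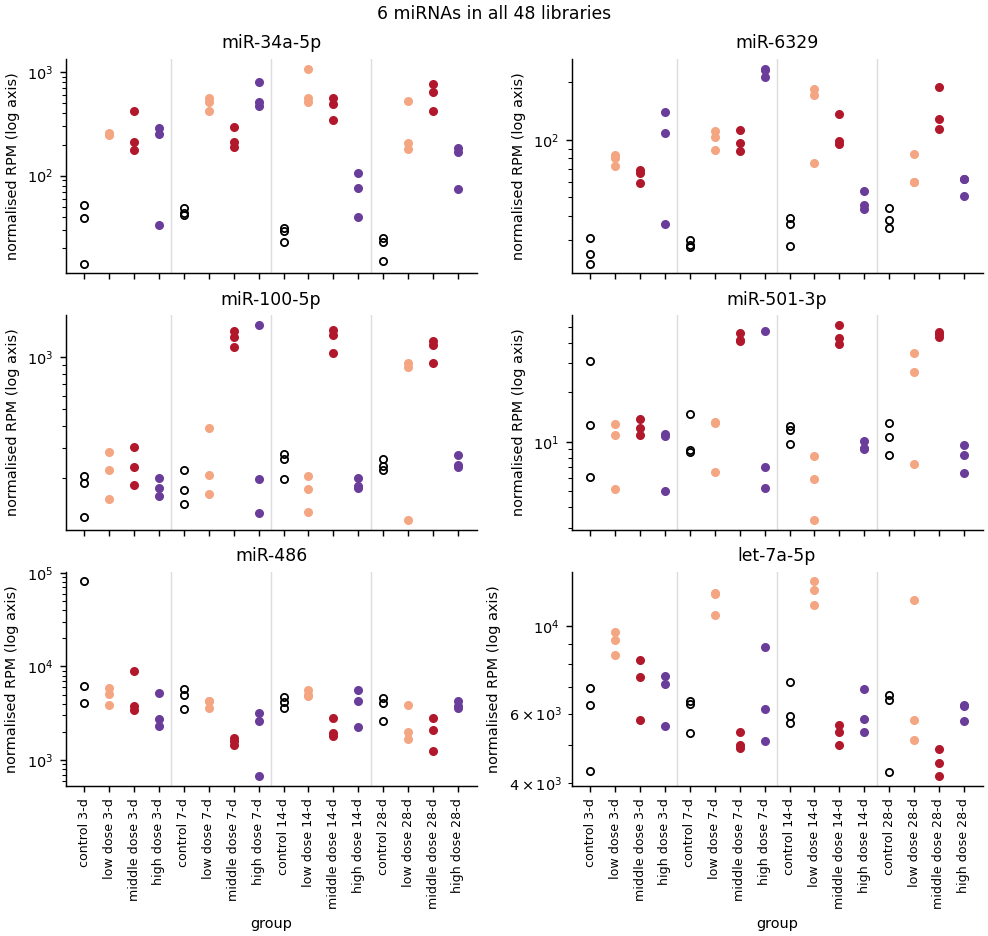
Normalised RPM (vertical log axes, scaled over all 48 libraries) of 6 miRNAs in each of the 16 groups (horizontal axis), 1 point for each rat, open for controls and filled for low dose (orange), middle dose (red) and high dose (purple). miR-100-5p and miR-501-3p are high in the middle dose groups of 7, 14 and 28 days and in single rats of high dose 7-d and low dose 28-d, whereas miR-34a-5p is raised in low dose 14-d as well.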

How the data were processed

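Small RNA of 48 rat livers was sequenced on an Illumina HiSeq2000. The authors trimmed adaptors, kept reads of miRNA length, mapped them to miRBase with miRDeep2 and deposited raw counts per mature miRNA and precursor, without normalization; their processing notes name genome build rn5 and FastQC. A mature miRNA on several precursors was represented by its precursor with the most reads. Of 664 miRNAs with a read, 301 reached 5 RPM in 3 or more of the 48 libraries and entered edgeR's (version 4.0.16, R 4.3.3) quasi-likelihood F-test on the 6 libraries after upper quartile normalization. The SE is the size of the log2 fold change divided by the square root of F. Differences between doses and times were contrasts of a model with all 48 libraries, adjusted by Benjamini and Hochberg's method over the 301. The rats of a group were separate animals (5 were treated in each condition and 3 were profiled), so p-values measure the spread between rats; an exact permutation test of 3 against 3 cannot go below 0.1 and was not used. Named miRNAs are miR-122-5p, miR-455-3p, miR-34a-5p, the 10 higher and 10 lower DEMs that lead by p-value without overlap, up to 4 DEMs of each list and all members of lists of up to 6, the 5 most abundant, up to 3 in each direction of each contrast, and both arms of these. The members and lists were chosen with earlier results of these data known. The scripts were tested on simulated data. Alternatives included TMM, DESeq2 1.42.0, other filters, pooled controls and each library left out.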

Additional observations from a re-analysis of the deposited data

Results flagged for a closer look

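Between doses at 14 days, 70 miRNAs for middle minus low dose and 16 for high minus middle dose passed the test of the difference itself (edgeR, fit of all 48 libraries, adjusted p-value below 0.05), and the 12 values given here are those of the 3 in each direction that lead by p-value. For middle minus low dose, on the log2 scale, they were 2.94 for miR-501-3p, 2.94 for miR-100-5p, 1.67 for miR-99a-5p, -1.20 for let-7a-5p, -1.36 for miR-148a-5p and -0.87 for miR-1843a-5p. For high minus middle dose they were 2.52 for miR-434-3p, 3.02 for miR-136-5p, 1.60 for miR-144-3p, -2.67 for miR-34a-5p, -1.76 for miR-99a-5p and -2.80 for miR-100-5p. The value of miR-136-5p rests on 7, 4 and 2 counts in the middle dose libraries, so its size depends on the prior count of the fit. Without high dose replicate 9 the difference of miR-144-3p was 1.02 and did not pass. The middle dose libraries belong to the 12 libraries that stood apart by miR-100-5p and the low and high dose 14-d libraries do not. For every miRNA of both contrasts the dose and that set of libraries therefore cannot be told apart.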

How the results depend on the processing

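Of 2177 values of named miRNAs under the alternatives, 2054 kept their direction and side of the threshold, and 20 of the 37 named DEMs passed under every alternative that tested them. Reversed were miR-127-3p, at -0.26 with all control libraries pooled and -0.26 in that pool without its shallowest library, and miR-193b-3p, at -0.75 with all controls pooled; the cause was not tested. Against 52 DEMs (36 higher, 69.2%, and 16 lower), no filter gave 85 with 32 lower, library size alone 56 higher, 5 RPM in 3 of the 6 libraries 10 lower (81.5% higher), 5 RPM in all 6 libraries 10 lower, a fit of all 48 libraries 10 lower, and DESeq2's Wald test was 57.4% higher. Leaving out single libraries gave 51 to 60 DEMs, 34 to 38 higher and 17 to 23 lower. The 4 lower red blood cell miRNAs became 2 with library size alone, 2 with all controls pooled, 1 in the fit of 48 libraries and 2 to 4 with single libraries left out (2 without middle dose replicate 31). For 14-d minus 7-d the 0 calls became 4 without the 3-d libraries and 5 with only the groups of the contrast. For 28-d minus 14-d single libraries left out gave 0 to 2 (2 without control 28-d replicate 16). Middle minus low dose went from 70 to 41 with no filter, 116 without the 3-d libraries, 122 with only its groups and 37 to 58 with single libraries left out. High minus middle dose went from 16 to 29 without the shallowest library of the series, 42 without the 3-d libraries, 46 with only its groups and 10 to 16 with single libraries left out. The settings without the shallowest library, and those without the low dose 28-d and high dose 7-d libraries, were chosen after seeing the data. No paired analysis was possible because the replicate numbers are not shared between groups. Below 3 counts in a library depth sets the limit.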
